A study of Mus musculus with 6 samples.

Results

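The simple and stress keratins of mouse colonic organoids were 10 genes (Krt7, Krt8, Krt18, Krt19, Krt23, Krt80, Krt6a, Krt14, Krt15 and Krt17), taken by symbol from the 25067 rows of deposited values, in which all 10 were found. The list holds the keratins of simple and ductal epithelia, those that skin makes after wounding, and keratins of the basal layer of stratified epithelia. Of the 10 genes, 9 were abundant enough to be tested between organoids given 4-hydroxytamoxifen (4-OHT) and organoids given vehicle. All 9 were higher with 4-OHT at a limma adjusted p under 0.05, from 1.13-fold for Krt14 to 2.45-fold for Krt23. Of all 13210 tested rows, 22.7% were higher. For Krt14 the groups overlapped, and leaving out 1 library could remove its call. Krt17 had at most 3 reads in any library.

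Keratins are the intermediate filament proteins of epithelial cells. Type I keratins (here Krt14, Krt15, Krt17, Krt18, Krt19 and Krt23) are acidic and type II keratins (here Krt6a, Krt7, Krt8 and Krt80) are neutral or basic, and a filament forms only when a protein of each type pairs with the other. In the intestine Krt8 pairs with Krt18 and Krt19 in a network that is densest below the microvilli and is anchored at desmosomes and hemidesmosomes, where it carries mechanical load. Skin switches on Krt6a, Krt16 and Krt17 when it is wounded, and Krt5 with Krt14 marks its basal layer.

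RNA was sequenced from organoids grown from colonic crypts of C57BL/6 mice aged 8 weeks, in a medium with WNT3A, EGF, Noggin and R-spondin 1. Both groups carried the genotype Prkcif/fPrkczf/f;Villin-CreERT2, that is, floxed alleles of both atypical protein kinase C (aPKC) genes and a Cre recombinase that 4-OHT activates and that the Villin promoter drives in intestinal epithelium. When passaged, the organoids of 3 libraries received vehicle (ethanol) and those of 3 libraries received 4-OHT, and RNA was taken after 3 days. The sample descriptions call the vehicle libraries wild type, although their genotype entry is the same as that of the 4-OHT libraries. No library with 4-OHT but without the floxed alleles or without Cre was analysed here, so loss of aPKC, Cre activity and 4-OHT itself cannot be told apart in any value below. The labels number the libraries but do not say whether these came from separate cultures or animals, so p-values measure only the spread between libraries, which may be technical.

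The libraries held between 15804709 and 26957612 reads. As a check of the labels, Prkcz averaged 912 ± 37.9 normalized counts (SD, n = 3) in vehicle and 281 ± 13.6 with 4-OHT (log2 fold change -1.70, limma adjusted p = 3.2e-12). Prkci averaged 3520 ± 86.9 and 3021 ± 132 (log2 fold change -0.22, limma adjusted p = 8.1e-04). For both genes every 4-OHT library lay below every vehicle library. Reads of the floxed exons were not separated from those of the rest of each gene. Of the 10 colonic epithelial markers, 10 were abundant enough to be tested, and their summed level was 4932 to 5198 reads per 1000000 (RPM) in vehicle and 5522 to 5821 with 4-OHT, with 4 genes higher and 3 lower. Along the second principal component (14.1% of the variance) 4-OHT replicate 1, at -26.8, stood apart from 4-OHT replicates 2 and 3, at 10.5 and 10.9. These replicates 2 and 3 also held more reads of Paneth and ileal markers and of immune and plasma cell markers, whose source was not tested. The 12 Paneth and ileal markers summed to 70.3 to 88.5 RPM in vehicle, 83.2 in 4-OHT replicate 1, and 126 and 129 in 4-OHT replicates 2 and 3. Immune and plasma cell markers summed to at most 0.687 in vehicle, and to 0.986, 11.8 and 6.99 in 4-OHT replicates 1, 2 and 3. The keratin values are therefore also given for 4-OHT replicate 1 alone.

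Together the 10 keratins took 1.85%, 1.86% and 1.94% of the reads of vehicle replicates 1, 2 and 3, and 2.53%, 2.66% and 2.54% of those of 4-OHT replicates 1, 2 and 3. The groups did not overlap, and nearly all of these reads belonged to Krt8, Krt19, Krt7 and Krt18, which alone took 1.81% to 1.89% in vehicle and 2.47% to 2.61% with 4-OHT. Since these are bulk libraries, a change in the share of cells of a type and a change in RNA per cell cannot be told apart.

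Krt8, the main type II keratin of simple epithelia, had normalized counts of 131818, 136377 and 138703 in vehicle replicates 1, 2 and 3 and of 189303, 208226 and 192446 in 4-OHT replicates 1, 2 and 3. Each 4-OHT library lay above each vehicle library, and 4-OHT replicate 2 was the highest. The log2 fold change was 0.54 (SE 0.05, 95% confidence interval 0.43 to 0.64, limma adjusted p = 7.6e-08), which is 1.45-fold. Krt18, its type I partner, read 38057, 39403 and 40401 in vehicle and 55812, 60953 and 57504 with 4-OHT. The same library was the highest, and again the groups did not overlap. Krt18 rose by 0.56 on the log2 scale (SE 0.05, 95% confidence interval 0.47 to 0.66, limma adjusted p = 1.0e-08), or 1.48-fold. In 4-OHT replicate 1 alone Krt8 stood 0.48 and Krt18 0.51 above the vehicle mean on the log2 scale, and both still passed the threshold. Under quantile normalization the log2 fold change of Krt8 was 0.28, with an adjusted p of 6.2e-06. Krt8 shares 26.9% of the 50-letter words of its principal transcript with the pseudogene Krt8-ps, whose row was also higher (0.41, adjusted p = 4.8e-05), and the split of such reads is uncertain.

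Krt8 and Krt18 are neighbours on chromosome 15, although Krt18 is a type I gene and the other type I members lie on chromosome 11. RefSeq promoters were found for 5 of the 10 genes (Krt7, Krt8, Krt14, Krt18 and Krt23). The stretches printed here are those of the Krt8 and Krt18 pair, whose changes were close, and of Krt23, which had the largest log2 fold change, in build GRCm38.p6 and written 5′ to 3′ on the strand of the gene. Each starts 250 bases before the RefSeq start and stops where the annotation marks transcribed sequence. Capitals mark CACCC, the core letters that KLF factors recognise, or its complement GGGTG.
Krt8, chr15:102004483-102004592, minus strand: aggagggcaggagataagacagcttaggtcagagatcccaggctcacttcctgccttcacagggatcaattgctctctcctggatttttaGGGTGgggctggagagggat
Krt18, chr15:102027966-102028179, plus strand: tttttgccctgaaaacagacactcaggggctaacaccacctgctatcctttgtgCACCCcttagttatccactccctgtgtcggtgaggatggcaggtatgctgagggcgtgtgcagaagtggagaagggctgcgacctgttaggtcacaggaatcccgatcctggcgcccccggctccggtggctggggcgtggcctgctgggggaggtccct
Krt23, chr11:99493138-99493370, minus strand: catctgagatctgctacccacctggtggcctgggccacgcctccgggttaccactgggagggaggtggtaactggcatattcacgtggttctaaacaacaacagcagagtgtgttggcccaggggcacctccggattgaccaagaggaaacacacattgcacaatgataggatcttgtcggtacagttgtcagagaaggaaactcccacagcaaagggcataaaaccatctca

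CACCC occurs on either strand in 52.0% of the 250-base windows before the start of 32851 promoters, so a match is common. In the whole window Krt8 held 2 matches, at -160 and -137 from the start, Krt18 held 1, at -196, and Krt23 held none. Krt7 and Krt14 held 1 each. GGGCGG, the GC box, which stands in 32.7% of the windows, was found 4 times before Krt7 and before none of the other 4 genes. GGAATG, the letters of TEAD factors, stands in 12.6% of the windows and was found once, before Krt14. TATAAA (12.4% of windows), CCAAT (33.8%) and the AP-1 letters TGANTCA (6.75%) were not in these 5 windows, on either strand. No searched motif overlapped another in them. These are matches of letters, and no binding was measured.

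**Figure D1:**
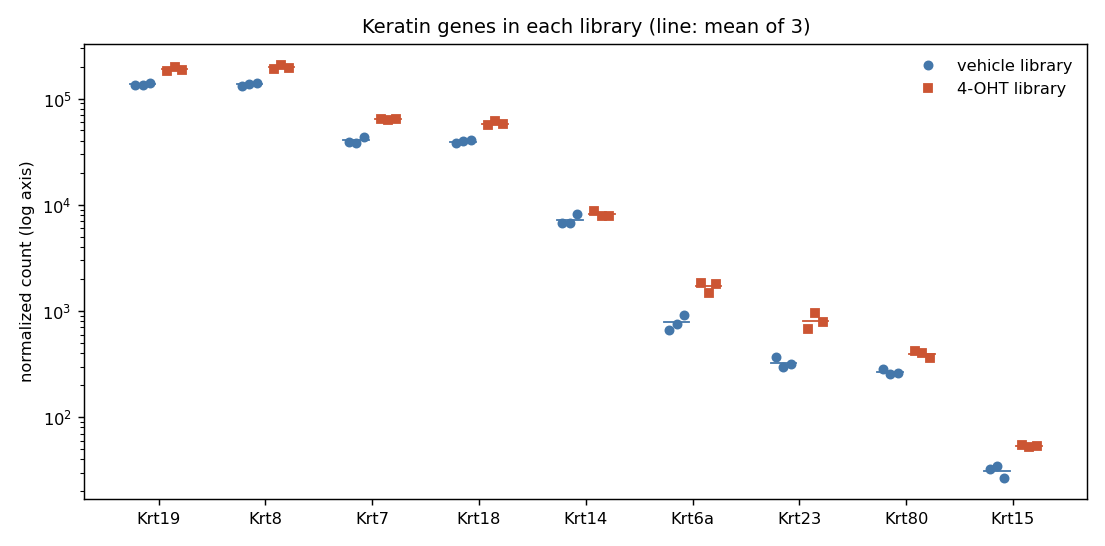
Normalized count (log axis) of the 9 tested keratins in each library, with circles for vehicle, squares for 4-OHT and a line at the mean of 3 libraries. Except for Krt14, all 3 squares of a gene lie above all 3 circles, and the scale runs from 26.6 for Krt15 in vehicle replicate 3 to 208226 for Krt8 in 4-OHT replicate 2. Counts are not divided by transcript length, so heights are to be compared within a gene.

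Krt19, a type I keratin of simple and ductal epithelia that lacks most of the tail domain, had normalized counts of 134813, 133604 and 138925 in vehicle and 182764, 197579 and 184117 with 4-OHT. All 4-OHT libraries were above all vehicle libraries. The difference of 0.47 on the log2 scale (SE 0.05, 95% confidence interval 0.37 to 0.57, limma adjusted p = 2.9e-07) corresponds to 1.39-fold. Quantile normalization took this call away (0.03, adjusted p = 0.56). That method gives each rank the same value in every library, and Krt19 and Krt8 held ranks 2 to 4 in all 6. Krt7, a type II keratin typical of ducts and glands, read 39118, 38451 and 43352 in vehicle and 63835, 62968 and 63737 with 4-OHT. The 4-OHT libraries differed among themselves by a coefficient of variation of only 0.747%, against 6.59% in vehicle. Krt7 rose by 0.66 on the log2 scale (SE 0.05, 95% confidence interval 0.56 to 0.76, limma adjusted p = 2.2e-09), or 1.58-fold, and by 0.67 in 4-OHT replicate 1 alone.

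Krt23, a type I keratin of simple epithelia, had the largest log2 fold change of the 9 tested. It had normalized counts of 365, 297 and 317 in vehicle replicates 1, 2 and 3 and of 674, 961 and 784 in 4-OHT replicates 1, 2 and 3. The lowest 4-OHT library, replicate 1, was still far above the highest vehicle library. The log2 fold change was 1.29 (SE 0.11, 95% confidence interval 1.07 to 1.51, limma adjusted p = 9.4e-09), or 2.45-fold, and ranked 140 among the 13210 tested rows. Above the vehicle mean, 4-OHT replicates 1, 2 and 3 stood at 1.05, 1.56 and 1.27 on the log2 scale. Krt80, a type II keratin found near cell margins and desmosomes, read 282, 255 and 260 in vehicle and 416, 399 and 361 with 4-OHT. Its groups did not overlap either. Krt80 rose by 0.56 on the log2 scale (SE 0.09, 95% confidence interval 0.36 to 0.75, limma adjusted p = 6.3e-05), or 1.47-fold, from counts far lower than those of Krt8 or Krt19. In 4-OHT replicate 1 alone Krt80 stood 0.65, and Krt19 0.43, above the vehicle mean on the log2 scale.

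Among the stress keratins, Krt6a, the wound-induced type II keratin of skin, had normalized counts of 656, 760 and 924 in vehicle and of 1828, 1471 and 1801 with 4-OHT. Here 4-OHT replicate 2 was the lowest of its group, whereas for Krt8, Krt18, Krt19 and Krt23 it was the highest. Krt6a rose by 1.13 on the log2 scale (SE 0.10, 95% confidence interval 0.93 to 1.33, limma adjusted p = 1.5e-08), or 2.19-fold, and by 1.24 in 4-OHT replicate 1 alone. Of the 50-letter words of its principal transcript, 62.0% also occur in transcripts of other genes, and 43.6% in Krt6b. How reads shared by such copies were counted is not given in the sources used here, so the split between them is uncertain. Krt6b itself had between 1 and 17 reads in a library. Krt17, a type I keratin of wounded skin, was at 0 in all vehicle libraries and at 3, 1 and 3 reads with 4-OHT. A limit of 3 reads per library was set for detection, and since both groups were at or under it no fold is given.

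Of the basal keratins, Krt14, the type I keratin of basal layers, had normalized counts of 6785, 6678 and 8204 in vehicle and of 8669, 7807 and 7894 with 4-OHT. Vehicle replicate 3 lay above 4-OHT replicates 2 and 3, so the groups overlapped. The log2 fold change was 0.17 (SE 0.06, 95% confidence interval 0.04 to 0.31, limma adjusted p = 0.030), or 1.13-fold. This call was lost without vehicle replicate 1 (0.13, adjusted p = 0.15), without vehicle replicate 2 (0.12, adjusted p = 0.17), without 4-OHT replicate 1 (0.13, adjusted p = 0.12), with 4-OHT replicate 1 alone (0.27, adjusted p = 0.059) and under quantile normalization (0.09, adjusted p = 0.30), and without vehicle replicate 3 the log2 fold change was 0.27 (adjusted p = 3.7e-04). Krt14 shares 14.4% of its 50-letter words with other genes, mostly Krt16. Krt15, a type I keratin of basal cells and of the stem cells of the hair follicle, was far lower, at 32.7, 34.8 and 26.6 in vehicle and 54.8, 52.9 and 53.5 with 4-OHT. The groups stood apart, on 22 to 53 reads in a library. Krt15 rose by 0.77 on the log2 scale (SE 0.23, 95% confidence interval 0.29 to 1.24, limma adjusted p = 0.0095), or 1.70-fold, and the call was lost with 4-OHT replicate 1 alone (0.79, adjusted p = 0.087).

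Of the 9 tested keratins, 9 were called higher and 0 lower by limma, with 0 lower also at an unadjusted p under 0.05. By edgeR and by DESeq2 on the recovered reads, 9 were likewise higher and 0 lower. Of all 13210 tested rows, limma called 43.6%, with 22.7% higher and 21.0% lower, edgeR called 22.4% higher and DESeq2 20.5%. In 8 of the 9, every 4-OHT library lay above every vehicle library, as it did for 26.8% of all tested rows. In 52.1% of all rows the groups did not overlap in one direction or the other, and in 25.3% every 4-OHT library was below every vehicle library. The median log2 fold change of the 9 was 0.56, against -0.01 over all tested rows, whose 5th and 95th percentiles were -0.70 and 0.67. Krt7, Krt8, Krt18, Krt19, Krt80 and Krt14 lay inside that range, and Krt23, Krt6a and Krt15 lay above it. Each of the 9 had a normalized count of at least 10 in every vehicle library, so none was tested only because it was high with 4-OHT.

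**Figure D2:**
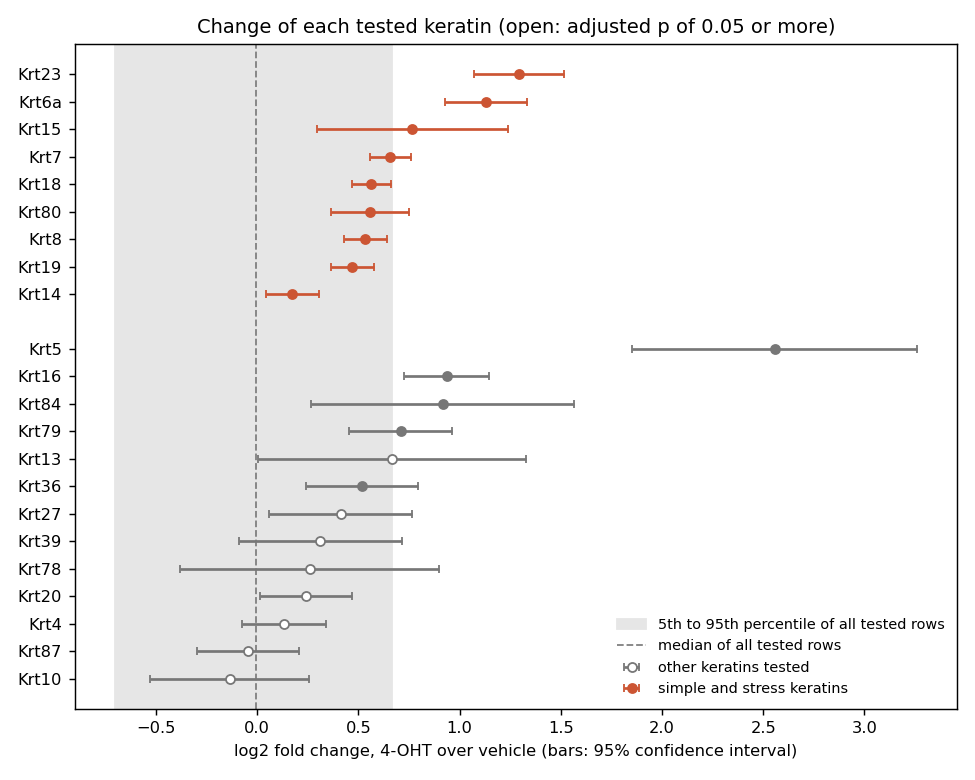
Log2 fold change of 4-OHT over vehicle with its 95% confidence interval for the 9 tested simple and stress keratins and, in grey, for the 13 other keratins tested. Open symbols did not pass an adjusted p of 0.05. The grey band spans the 5th to 95th percentile of all tested rows (-0.70 to 0.67) and the dashed line is their median. All 9 simple and stress keratins lie above 0, with Krt23 at 1.29, Krt6a at 1.13 and Krt15 at 0.77 outside the band.

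**Figure D3:**
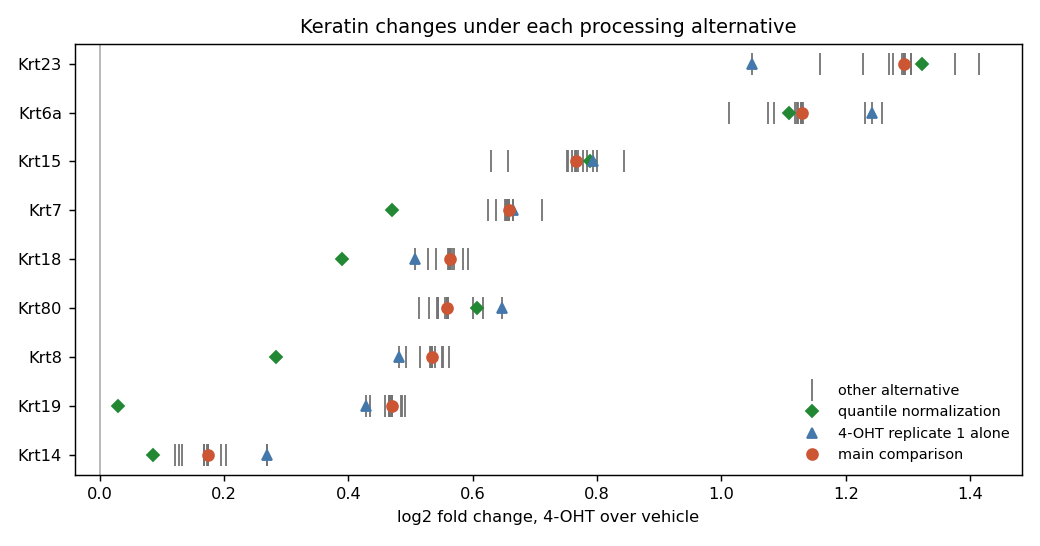
Log2 fold change of each tested keratin in the main comparison (circle), under quantile normalization (diamond), with 4-OHT replicate 1 alone (triangle) and under the other alternatives (ticks). No value is below 0, and the diamond of Krt19, at 0.03, lies far to the left of its circle at 0.47.

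Divided by the length of the principal transcript, Krt19 stood highest in vehicle, at 86155 ± 1770 normalized counts per kilobase (SD, n = 3), followed by Krt8 at 69271 ± 1789, Krt18 at 27339 ± 819, Krt7 at 9845 ± 649 and Krt14 at 4254 ± 502. Krt6a (342 ± 59.3), Krt23 (208 ± 22.4), Krt80 (86.7 ± 4.58) and Krt15 (18.4 ± 2.48) followed. With 4-OHT the order was the same, from Krt19 at 119387 ± 5197 and Krt8 at 100438 ± 5179 down to Krt80 at 128 ± 9.26 and Krt15 at 31.6 ± 0.566. Krt6a reached 746 ± 87.2 and Krt23 reached 515 ± 92.6 normalized counts per kilobase. In either group, no neighbours in this order overlapped between libraries. These levels rest on 1 transcript per gene of an annotation of build GRCm38, and the deposited values were made on GRCm39.

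Because filaments need both types, levels of partners were set against each other per kilobase. The ratio of Krt8 to Krt18 was 2.54, 2.54 and 2.52 in vehicle and 2.49, 2.51 and 2.46 with 4-OHT. The groups did not overlap, and the mean ratio decreased by 1.96% while the genes rose 1.45-fold and 1.48-fold. Krt7 over Krt19 went from 0.114 ± 0.0051 (SD, n = 3) to 0.130 ± 0.0065 (SD, n = 3). Summed over the 10 genes, type II over type I keratins went from 0.674 ± 0.0093 to 0.707 ± 0.0013. With 3 libraries against 3, an exact two-sided permutation test cannot give a p below 0.10, and no other test of these ratios was run. Krt6a over Krt16, at 2.51 ± 0.425 and 2.85 ± 0.348, overlapped between the groups.

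In basal layers the pair is Krt14 and Krt5. Krt5, the type II partner of Krt14 in basal layers and a gene outside the 10, had normalized counts of 8.40, 8.51 and 6.05 in vehicle and 61.0, 58.0 and 34.2 with 4-OHT, on 5 to 12 and 30 to 59 reads. Krt5 passed the filter on low values only through the 4-OHT group, so its call is given as no support for a change. The difference was 2.56 on the log2 scale (SE 0.34, limma adjusted p = 4.0e-06). Krt14 over Krt5 per kilobase was 1046, 1015 and 1754 in vehicle and 184, 174 and 299 with 4-OHT, so Krt5 stayed a small fraction of Krt14 in every library.

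**Figure D4:**
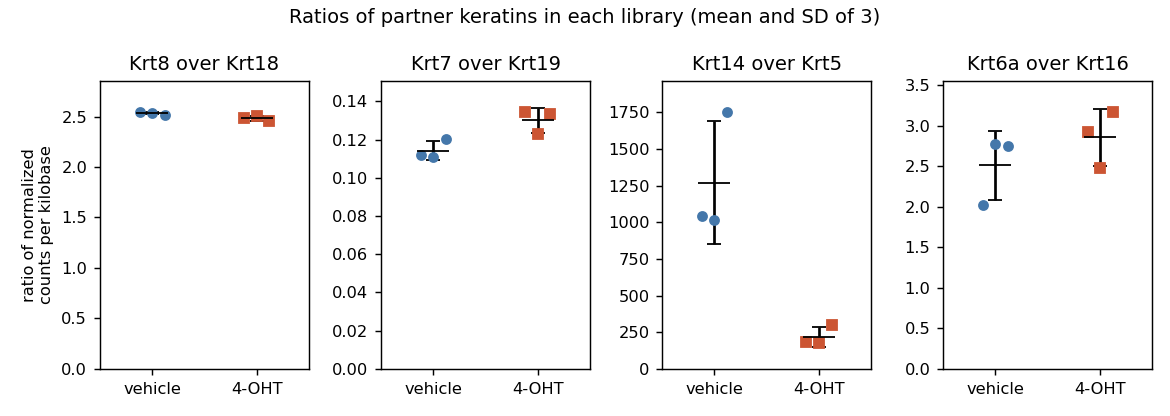
Ratio of normalized counts per kilobase for partner keratins in each library, with circles for vehicle, squares for 4-OHT, and the mean with SD of 3 libraries. Krt8 over Krt18 hardly moved (2.53 and 2.48), Krt7 over Krt19 went from 0.114 to 0.130, and Krt6a over Krt16 overlapped. Krt14 over Krt5 went from 1271 ± 418 to 219 ± 69.5 (SD, n = 3). Krt5 had only 9, 12 and 5 reads in vehicle replicates 1, 2 and 3, so the size of this drop is uncertain.

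Of the 43 other keratin genes listed, 32 were in the table and 13 were tested, of which 5 were called higher and 0 lower, with 0 lower also at an unadjusted p under 0.05 and by edgeR and DESeq2. Their median log2 fold change was 0.41. Besides Krt5, these were Krt16, the type I partner of Krt6a (0.94, limma adjusted p = 3.1e-07), Krt79, a type II keratin of hair follicle and sebaceous gland ducts (0.71, adjusted p = 9.0e-05), Krt84 (0.92, adjusted p = 0.022) and Krt36 (0.52, adjusted p = 0.0037), both keratins of hair and nail type. Krt36 falls outside the rule for naming genes and was named after its value was seen. Krt84 had a mean of 16.6 in vehicle and 31.3 with 4-OHT, and 5 of 15 alternatives took its call away, among them those without vehicle replicate 1 (0.67, adjusted p = 0.11) and 4-OHT replicate 2 (0.90, adjusted p = 0.059). Krt36 lost its call with 4-OHT replicate 1 alone (0.40, adjusted p = 0.15). Krt12, Krt28, Krt73, Krt75, Krt76 and Krt81 were at 0 in all 6 libraries. Krt16 had normalized counts of 223, 189 and 231 in vehicle and of 431, 407 and 390 with 4-OHT, so it stood apart in the same direction as Krt6a. By position, 2 of 7 tested other keratins of chromosome 11 (28.6%) and 4 of 7 of chromosome 15 (57.1%) were higher. Of the simple and stress keratins, 4 of 4 and 5 of 5 were higher. Over all tested rows 22.7% were higher and 43.6% called, and of the 13 tested other keratins of the list 38.5% were called, all higher. The chromosome 15 count takes in Krt90, which was not on the list. Krt5, which passed the filter only through the 4-OHT group, is in that count and in the 38.5%. Its call is given as no support for a change.

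The cell types that carry stratified or ductal keratins were checked by their other markers. Of 15 stratified squamous markers 14 were in the table and 9 were tested. Of these, 3 were higher (Krt5, which passed the filter only through the 4-OHT group, Tgm1 and Dsg3), or 33.3%, against 22.7% of all tested rows. The summed level of the list ran from 344 to 438 RPM in vehicle and from 374 to 520 with 4-OHT. Krt4 made up most of this sum, with mean normalized counts of 6865 and 7586, against 487 and 634 for Dsg3. Krt4 was not called (0.13, limma adjusted p = 0.29) and its groups overlapped. Trp63, which basal cells of such epithelia require, had at most 1 read in a library and 0 in each 4-OHT library. Of the 5 mesothelial markers Msln made up nearly all of the sum (351 to 405 RPM in vehicle, 453 to 506 with 4-OHT), while Wt1 had at most 1 read and Upk3b, Lrrn4 and Muc16 at most 7. Of the 5 urothelial markers 3 were tested and 1, Psca, was higher, and Upk2 was at 0 in all but 4-OHT replicate 1, which had 3 reads. The urothelial sum was 2.97 to 3.83 and 5.34 to 6.33 RPM. Their part in the keratin values was not tested.

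The 10 proliferation markers were all called lower, while of all tested rows 21.0% were lower and 22.7% higher. Their median log2 fold change was -0.65, and their summed level was 2013 to 2144 RPM in vehicle and 1072 to 1220 with 4-OHT. Enteroendocrine markers (4 of 6 tested higher) summed to 31.8 to 46.3 and 49.4 to 57.4, tuft markers (1 of 2 higher) to 8.92 to 11.1 and 11.9 to 12.9, and goblet markers (5 of 8 higher, 1 lower) to 382 to 476 and 400 to 450 RPM. Fibroblast markers summed to at most 1.08 RPM in vehicle and to 0.415, 0.919 and 10.5 in 4-OHT replicates 1, 2 and 3. Smooth muscle markers summed to at most 0.696 in vehicle and to 0.727, 3.22 and 8.18 in the same 4-OHT libraries. Endothelial markers (0 of 1 called) summed to 2.15 to 3.23 in vehicle and 1.92 to 3.24 with 4-OHT. In the Paneth and ileal, immune and plasma, fibroblast and smooth muscle lists, 6 of 7, 2 of 2, 1 of 1 and 1 of 1 of the genes called higher had a vehicle mean under 10 and passed the filter only through the 4-OHT group, so these calls are given as no support for a change. The part of these shifts in the keratin values was not tested.

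Of 16 genes for proteins that tie keratin filaments to junctions, all tested, 8 were higher, 2 lower and 6 not called. Their median log2 fold change was 0.11. The shares over all 13210 tested rows were 22.7% higher and 21.0% lower, or 43.6% called. Itgb4, the hemidesmosomal integrin, rose by 0.41 (limma adjusted p = 1.4e-07), Pkp3, a desmosomal plakophilin, by 0.39 (adjusted p = 5.6e-07) and Jup, plakoglobin, by 0.36 (adjusted p = 6.2e-07) on the log2 scale. Eppk1, epiplakin, which bundles keratin filaments, went from 490, 383 and 495 in vehicle to 316, 220 and 313 with 4-OHT, or -0.70 on the log2 scale (SE 0.13, adjusted p = 1.6e-04). The other lower gene was Plec, plectin (-0.13, adjusted p = 0.030), whose groups overlapped and which was named after its value was seen. Its call was lost in 5 of 16 alternatives, among them those without vehicle replicate 1 (-0.10, adjusted p = 0.15), vehicle replicate 2 (-0.12, adjusted p = 0.12) and 4-OHT replicate 2 (-0.10, adjusted p = 0.10).

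Of 18 keratin-binding and quality-control genes, all tested, 10 were higher (55.6%, against 22.7% of all tested rows) and 3 lower (median 0.21). Hspb1, a small heat shock protein that binds intermediate filaments, moved most, from 25.2, 43.3 and 47.2 in vehicle to 123, 172 and 154 with 4-OHT. Its groups stood far apart, and the difference was 1.96 on the log2 scale (SE 0.22, limma adjusted p = 4.7e-07). Sfn, the 14-3-3 sigma protein that binds keratins, rose by 0.38 on the log2 scale (adjusted p = 2.2e-06). Tgm2, the transglutaminase that crosslinks keratins of simple epithelia, fell by 0.57 on the log2 scale (adjusted p = 1.0e-06).

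Among 18 other intermediate filament genes 11 were tested, with 4 higher (36.4%, against 22.7% of all tested rows) and 3 lower. The median of the list was 0.06. Vim, vimentin, had 96.1, 109 and 90.8 in vehicle and 153, 151 and 249 with 4-OHT (log2 fold change 0.86, limma adjusted p = 3.6e-04), and was highest in 4-OHT replicate 3, as was the fibroblast sum. Nes, nestin, rose by 0.76 (adjusted p = 8.7e-07), and Lmnb2, a nuclear lamin, fell by 0.52 (adjusted p = 8.6e-07) on the log2 scale. Iffo1 (-1.11, adjusted p = 0.015) lost its call in 4 of 15 alternatives, among them those without vehicle replicate 1 (-1.07, adjusted p = 0.053), vehicle replicate 2 (-1.01, adjusted p = 0.073) and 4-OHT replicate 3 (-0.74, adjusted p = 0.077).

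Of 19 transcription factors of epithelial keratins 17 were tested, with 5 higher and 2 lower and a median of 0.05. The share called was 41.2% and the share higher 29.4%, near the 43.6% and 22.7% of all tested rows. Grhl3, a grainyhead factor of barrier epithelia, rose by 0.69 (limma adjusted p = 5.2e-08), Klf6 by 0.55 (adjusted p = 5.5e-07), Junb, a subunit of AP-1, by 0.48 (adjusted p = 3.7e-08) and Sox9 by 0.36 (adjusted p = 2.3e-06) on the log2 scale. The 2 lower genes, named after their values were seen, were Elf3 (-0.26, adjusted p = 1.3e-04) and Sp1 (-0.22, adjusted p = 0.0012).

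**Figure D5:**
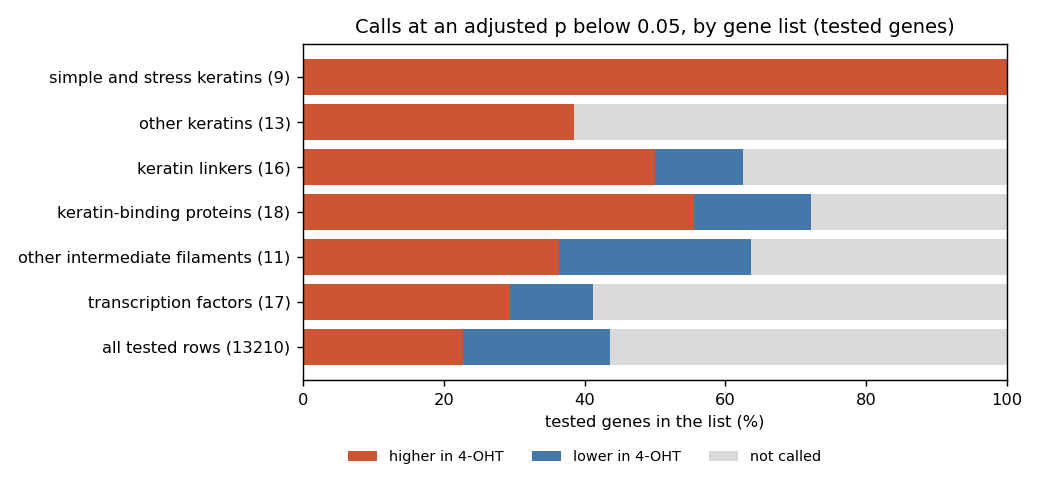
Share of tested genes called higher, lower or not called at an adjusted p under 0.05 in each gene list, with the number tested in parentheses. All 9 simple and stress keratins were higher, against 22.7% of all 13210 tested rows, and each of the other lists plotted also held genes that were not called.

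Krt8 and Krt18 were also close in profile. When each gene's log2 values in the 6 libraries were centred on its vehicle mean, the 3 genes nearest to Krt8 by Euclidean distance among 13209 were Myl6 (0.044), Dennd1c (0.051) and Krt18 (0.055). Krt19 ranked 38 and Krt7 402 in that order. The genes nearest to Krt23 were Hmga2-ps1 (0.13), Rhoc (0.19) and Dpysl3 (0.31). Of the other tested simple and stress keratins, Krt6a was the closest to Krt23, at rank 185 (0.84). The distance grows with the size of the change, since profiles were not scaled, and a rank says nothing of shared control.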

How the data were processed

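The 6 libraries (3 vehicle, 3 4-OHT) were grouped by the treatment in their labels. The deposited values are normalized counts, a signal for which the authors divided each gene's reads by the size factor of its library. They are not corrected for transcript length. The submitters' processing notes name STAR, DESeq2 and the build GRCm39 (mm39). The counter, the annotation and whether counting used strand are not given in the sources used here, so reads of Krt7, Krt8, Krt80 and Krt6a and of genes antisense to them cannot be told apart. Dividing by the step of each library gave whole reads for 100% of values (tolerance 0.1 reads).

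The log2 of the normalized count plus 1 was compared with limma-trend (limma 3.58.1, R 4.3.3) over the 13210 rows with a mean of at least 10, with Benjamini-Hochberg adjustment over all of them and a threshold of 0.05. Fold changes are on this scale. The 10 keratins and the gene lists were chosen with earlier results of these data known. All 10 keratins are described. Of each other gene list up to 4 genes past the threshold with the largest absolute log2 fold change are named, and the 3 profiles nearest to Krt8 and to the most changed keratin. Of the genes this rule names, 1 is not reported here.

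In 16 alternatives the pseudocount was 0.1 or 10, the filter was absent or a mean of at least 50, the scaling was TMM or quantile, the replicate number was a block, 1 of the 6 libraries was left out, 4-OHT replicate 1 stood alone, or recovered reads were fitted with edgeR 4.0.16 or DESeq2 1.42.0. Lengths, positions and shared words came from GENCODE vM21 (GRCm38) and promoters from RefSeq (GRCm38.p6). Neither is the build of the deposited values, and no value was read by coordinate. Libraries of 1 group differed by 3.55 to 6.41 times the variance of counting alone, so none is a copy of another. The limit of 3 reads covers counting error only. The fit was tested on simulated data in which every changed gene moved by more than most of the keratins did, so smaller changes were not covered.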

Additional observations from a re-analysis of the deposited data

How the results depend on the processing

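No call of the 10 keratins or of the 22 other named genes turned its direction under the 16 alternatives. Of 143 values of the keratins, 136 kept their side of the threshold and 7 lost it, and these belonged to Krt14, Krt15 and Krt19. The number of keratins called higher, 9 in the main comparison, was 7 under quantile normalization and with 4-OHT replicate 1 alone, 8 with a mean of at least 50, which removed Krt15, and 10 without a filter, where Krt17 was tested on reads at or under the limit, and ran from 8 to 9 with 1 library left out. Other keratins called higher numbered 3 with a mean of at least 50, which removed Krt5 and Krt84. Without a filter 1 other keratin, Krt35, was called lower (limma adjusted p = 0.048). It had 6, 10 and 4 reads in vehicle and 2, 2 and 0 with 4-OHT, the latter under the limit. With 4-OHT replicate 1 alone, 1858 rows were higher and 1711 lower, a fit that assumes the lone library varies like the vehicle libraries. With 1 library left out, 2614 to 2905 rows were higher and 2315 to 2725 lower. Keratin linkers called lower numbered 1 without a filter and with 4-OHT replicate 1 alone, and 1 to 2 with 1 library left out. Transcription factors called lower numbered 5 under quantile normalization. The cause was not tested. No alternative moved the median of all tested rows by 0.1 on the log2 scale.

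The deviations of same-numbered libraries correlated at -0.01, 0.03 and -0.02, and those of differently numbered libraries at -0.05 to 0.05. These values show no sign that the numbers pair the libraries. They cannot exclude pairing, since noise of preparation could hide a shared origin. With the replicate block 9 keratins were higher, as were 2938 rows, with 2699 lower.

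Depth limits Krt17, Krt15 and Krt5. The ratios of partner keratins were given without a test of their own, since the exact permutation test of 3 libraries against 3 allows no p below 0.10.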
